A study of Sus scrofa and Bos taurus with 31 samples.

Results

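Open chromatin of pig liver was set against that of pig subcutaneous adipose tissue, using 4 of the 31 ATAC-seq peak lists of the series, liver P348, liver P350, adipose P348 and adipose P350. ATAC-seq marks accessible DNA with a transposase, which inserts sequencing adapters between nucleosomes, and a peak is a stretch with more such insertions than the local background. P348 and P350 are 2 untreated castrated male Yorkshire pigs, littermates that had reached the adult stage, and each gave both tissues. Peaks of the 4 lists that share at least 1 bp were merged into 274726 regions. The liver set was the 23891 regions with a peak in both liver lists and in neither adipose list, 8.70% of all regions. The adipose set was the reverse, 20079 regions or 7.31%. A further 39248 regions (14.3%) had a peak in all 4 lists. Membership of the sets is what the rule fixed, so these numbers are a description.

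Liver and adipose tissue divide the handling of lipid between them. Hepatocytes make plasma proteins, bile acids, glucose and lipoproteins, and their identity is held by a network of factors that includes the HNF1, HNF4, FOXA, ONECUT and C/EBP families. Adipocytes store triglyceride in lipid droplets and release it by lipolysis, under PPARG, C/EBP and EBF factors. Both tissues also hold blood vessels, macrophages and connective tissue cells. Each list pools all cells of its sample, and more cells of a type and more open chromatin per cell cannot be told apart in it.

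The sequences that follow show what the regions look like. They come from the Sscrofa11.1 assembly (NCBI RefSeq), are written 5′ to 3′, and have capitals where the letters of a searched transcription factor motif occur on either strand. The first pair is the top of the liver set by the fold enrichment of the weaker library, outside exons, at chr17:14232287-14232525 (nearest coding gene PROKR2) and chr6:136202315-136202614 (nearest coding gene PIGK), both intergenic. The PROKR2 region had a peak in all 12 libraries of other pig tissues, and the PIGK region in 6 of the 12. The capitals are a PU.1 motif (GAGGAAGT) in the first and an AP-1 motif (TGANTCA) in the second.
PROKR2 region: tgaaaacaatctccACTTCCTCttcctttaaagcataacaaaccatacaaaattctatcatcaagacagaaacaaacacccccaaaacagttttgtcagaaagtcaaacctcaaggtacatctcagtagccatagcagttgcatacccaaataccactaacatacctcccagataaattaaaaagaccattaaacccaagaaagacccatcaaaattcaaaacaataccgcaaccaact
PIGK region: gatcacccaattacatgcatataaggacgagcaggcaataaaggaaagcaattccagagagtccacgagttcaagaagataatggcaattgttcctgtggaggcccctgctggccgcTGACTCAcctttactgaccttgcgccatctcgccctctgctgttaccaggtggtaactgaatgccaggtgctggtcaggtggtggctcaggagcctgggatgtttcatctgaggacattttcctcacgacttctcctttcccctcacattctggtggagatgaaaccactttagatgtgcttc

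The top pair of the adipose set lies at chr9:85162919-85163218, intergenic with MEOX2 as the nearest coding gene, and at chr18:31099689-31099988, in an intron of MDFIC. Each stretch holds an AP-1 motif, shown in capitals.
MEOX2 region: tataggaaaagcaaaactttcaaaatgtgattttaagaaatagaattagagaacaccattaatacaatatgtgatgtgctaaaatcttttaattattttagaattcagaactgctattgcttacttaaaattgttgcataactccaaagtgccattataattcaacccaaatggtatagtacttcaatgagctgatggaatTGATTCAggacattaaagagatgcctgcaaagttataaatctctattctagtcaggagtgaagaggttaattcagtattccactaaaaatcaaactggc
MDFIC region: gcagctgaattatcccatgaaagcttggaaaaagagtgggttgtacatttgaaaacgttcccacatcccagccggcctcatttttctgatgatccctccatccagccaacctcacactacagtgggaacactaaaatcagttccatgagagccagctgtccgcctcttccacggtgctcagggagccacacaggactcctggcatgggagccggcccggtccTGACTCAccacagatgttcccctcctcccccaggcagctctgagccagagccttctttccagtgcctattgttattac

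A further 5 sequences were chosen after their values were seen, because they lie by genes that define the tissues and hold motifs of the factors named above. SLCO1B3 encodes a bile acid and drug carrier of the hepatocyte membrane. A liver set region of 276 bp in an intron of it, chr5:52185518-52185793 and 16058 bp from the nearest coding TSS, was enriched 4.78-fold in the first animal and 3.79-fold in the second. It had a peak in 1 of the 12 libraries of other pig tissues and holds a GATA motif (AGATAAG), an HNF1 and a FOXA motif. The liver set region nearest to CEBPA, a factor of both hepatocytes and adipocytes, is intergenic and 25815 bp from its TSS, and its folds were 5.41 and 3.74. It had peaks in 4 of the 12 other libraries, among them both of lung. Its middle 300 bases, chr6:43059673-43059972, hold overlapping HNF1 motifs, a FOXA motif, and CTCF (AGGGGGC) and KLF/SP motifs.
SLCO1B3 region: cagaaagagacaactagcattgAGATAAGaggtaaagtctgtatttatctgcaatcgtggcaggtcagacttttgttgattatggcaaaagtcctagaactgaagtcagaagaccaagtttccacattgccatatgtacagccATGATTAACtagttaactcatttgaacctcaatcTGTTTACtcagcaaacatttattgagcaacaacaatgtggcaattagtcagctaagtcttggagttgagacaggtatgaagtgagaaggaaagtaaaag
CEBPA region: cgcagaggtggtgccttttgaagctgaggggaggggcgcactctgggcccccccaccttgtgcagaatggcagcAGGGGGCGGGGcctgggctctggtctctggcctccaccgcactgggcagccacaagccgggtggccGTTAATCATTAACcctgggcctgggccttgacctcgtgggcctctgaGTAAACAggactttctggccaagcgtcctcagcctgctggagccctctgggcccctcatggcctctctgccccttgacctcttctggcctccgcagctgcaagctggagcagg

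On the adipose side, ADIPOQ encodes adiponectin, the most abundant adipocyte hormone. A region of 2308 bp over its TSS belonged to the adipose set, enriched 3.15-fold and 3.12-fold, and had no peak in any of the 12 other libraries. The 250 bases before that TSS, chr13:124633656-124633905, hold an EBF motif (CCCNNGGGA). PPARG is the nuclear receptor that drives fat cell formation. An intronic region of 822 bp, 5410 bp from a PPARG TSS, had folds of 4.08 and 3.24, and its middle, chr13:68357861-68358160, holds an EBF motif. The intergenic region at chr4:79853544-79853843, 18934 bp from CEBPD, an early factor of fat cell formation, had folds of 3.08 and 4.11 and holds an EBF and a KLF/SP motif (GGGCGGGG). The PPARG and CEBPD regions also had peaks in both animals in lung and skeletal muscle, and the CEBPD region in cerebellum too.
ADIPOQ promoter: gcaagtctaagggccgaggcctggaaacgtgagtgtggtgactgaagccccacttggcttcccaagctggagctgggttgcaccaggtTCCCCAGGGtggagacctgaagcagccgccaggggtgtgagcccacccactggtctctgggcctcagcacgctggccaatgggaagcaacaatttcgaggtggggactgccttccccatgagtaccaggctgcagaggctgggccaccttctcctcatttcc
PPARG region: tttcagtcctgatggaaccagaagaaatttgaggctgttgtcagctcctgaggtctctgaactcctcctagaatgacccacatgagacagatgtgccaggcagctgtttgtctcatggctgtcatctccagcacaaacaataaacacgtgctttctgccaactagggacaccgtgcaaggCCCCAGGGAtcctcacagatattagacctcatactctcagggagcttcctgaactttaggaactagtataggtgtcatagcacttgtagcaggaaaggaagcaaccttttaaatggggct
CEBPD region: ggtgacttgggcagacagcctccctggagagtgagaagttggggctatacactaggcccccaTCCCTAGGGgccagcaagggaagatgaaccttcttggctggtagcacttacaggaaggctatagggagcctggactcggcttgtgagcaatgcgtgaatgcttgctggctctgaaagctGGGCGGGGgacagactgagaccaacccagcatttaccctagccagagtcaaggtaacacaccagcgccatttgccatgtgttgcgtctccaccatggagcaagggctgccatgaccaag

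The labels were checked at 4 marker genes, as the bases covered by peaks within 10 kb of the gene per Mb of peaks in the library. ALB (albumin, chr8:69643427-69663152) had 125 bases per Mb in liver P348 and 57.8 in liver P350, against 2.06 in adipose P348 and 11.7 in adipose P350. APOH (apolipoprotein H, chr12:12827195-12839172) had 40.4 and 6.90 in liver and no peak in either adipose list. Both liver markers therefore separated the tissues without overlap. Of all coding genes, 19.0% had such a separation toward liver and 21.2% toward adipose. The adipocyte markers did not. LEP (leptin, chr18:20106867-20124071) had 51.0 in adipose P348 and 18.8 in adipose P350, against 25.4 in liver P348 and 51.3 in liver P350. PLIN1 (perilipin 1, which coats the lipid droplet, chr7:55237517-55250797) had 34.5 and 21.2 in adipose against 35.1 and 30.6 in liver.

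Single regions at the markers show the same contrast. ALB was the nearest gene of 4 liver set regions and of no adipose set region. APOH was the nearest gene of 2 liver set regions, of which 1, of 2324 bp, covered its TSS with folds of 4.05 and 3.66. The LEP promoter was open in all 4 lists, with folds of 3.39 and 2.74 in liver and 2.59 and 2.92 in adipose. A region 1399 bp from the PLIN1 TSS belonged to the liver set, with folds of 3.47 and 2.96, and PLIN1 was the nearest gene of 2 liver set regions and 1 adipose set region. FABP4, the fatty acid carrier of adipocytes, did separate the lists, with 13.1 and 9.7 bases per Mb in adipose and none in liver. Higher values in both adipose libraries were found at 21.2% of all coding genes. The adipose libraries are thus called so by their labels, and LEP and PLIN1 do not mark them against liver in these lists.

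**Figure D1:**
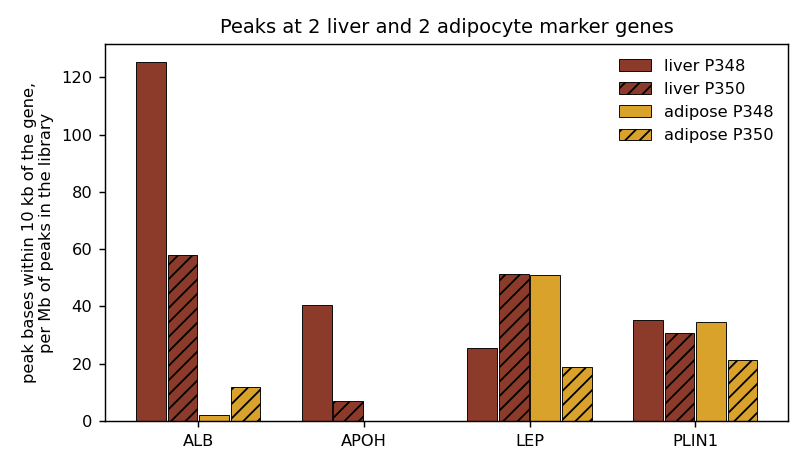
Bases covered by peaks within 10 kb of 4 marker genes, per Mb of peaks in the library, 1 bar for each of the 4 libraries. The liver bars stand above the adipose bars at ALB and APOH, with no adipose peak at APOH, while the bars of both tissues overlap at LEP and PLIN1.

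The lists themselves differed in length and strength, which bears on every result that follows. Liver P348 had 113682 peaks, liver P350 139307, adipose P348 163921 and adipose P350 115901. Covered sequence was 64.1 Mb and 87.1 Mb in liver and 125 Mb and 82.1 Mb in adipose. Neither peak number (exact two-sided permutation test of the log2 difference, p = 0.667) nor covered sequence (p = 0.667) separated the tissues, and with 2 libraries against 2 the smallest possible p is 0.333. Fold enrichment, the authors' ratio of signal to background averaged over a peak, had medians of 3.81 and 3.10 in liver and 2.73 and 2.93 in adipose, and its 90th percentile was 7.89 and 6.08 in liver but 3.67 and 3.94 in adipose. Peaks with a q-value under 0.0001 made up 49.5% and 35.5% of the liver lists and 13.1% and 11.08% of the adipose lists. Read depth is not in the lists and was not used here, so its part in these differences was not tested.

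Liver peaks were narrower. The median peak width was 402 bp in liver P348 and 485 bp in liver P350, a mean of 444 ± 58.7 bp (SD, n = 2), against 636 bp in adipose P348 and 598 bp in adipose P350, a mean of 617 ± 26.9 bp (SD, n = 2). Both liver libraries lay below both adipose libraries, a log2 difference of -0.48 with p = 0.333, the smallest this exact permutation test can give. The same order held in the merged sets. Regions of the liver set had a median width of 416 bp (quartiles 298 and 783), and those of the adipose set 869 bp (quartiles 559 and 1239). Taken in each animal on its own, regions with a peak in liver and not in adipose had median widths of 392 bp in P348 and 528 bp in P350, and regions with a peak in adipose and not in liver 658 bp and 648 bp. Regions with a peak in all 4 lists were wider than either set, with a median of 1372 bp, but they join the peaks of more lists. Counted in each library alone, their median peak bases were 635 and 744 in liver and 998 and 814 in adipose. The same measure gave 326 and 316 in the liver set and 620 and 531 in the adipose set.

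Both sets lay mostly away from promoters. Within 2 kb of a coding TSS were 1596 liver set regions, 6.68% (95% Wilson interval 6.37 to 7.004), and 902 adipose set regions, 4.49% (4.21 to 4.79). Regions open in all 4 lists were there in 33.6% of cases. In each animal on its own the share was 6.01% in P348 and 4.85% in P350 for liver, and 3.63% and 4.38% for adipose, so the groups did not overlap although they came close in P350. The order turned, to 7.98% in the liver set against 10.3% in the adipose set, when peaks had to cover 50% of a region, and the shares were level, 4.67% against 4.74%, without liver P348. Gene bodies held 48.3% of the liver set and 53.7% of the adipose set, and intergenic sequence 43.2% and 40.2%. The median distance to the nearest coding TSS was 37120 bp in the liver set and 34759 bp in the adipose set. In single animals it was 40011 bp and 53150 bp for liver and 44375 bp and 35012 bp for adipose, which overlap. For whole lists, the TSS proximal share was 15.6% and 13.1% in liver and 11.2% and 14.5% in adipose, with p = 0.667 (exact permutation test).

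The X chromosome held 2.54% of the liver set and 0.727% of the adipose set, against 1.41% of all merged regions. Of the liver set windows, 14 shared a stretch of 25 bases with the mitochondrial genome, and none of the adipose set did. Only exact stretches were counted, and the PROKR2 region had none. Whether it or other regions are diverged copies of mitochondrial sequence was not tested.

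**Figure D2:**
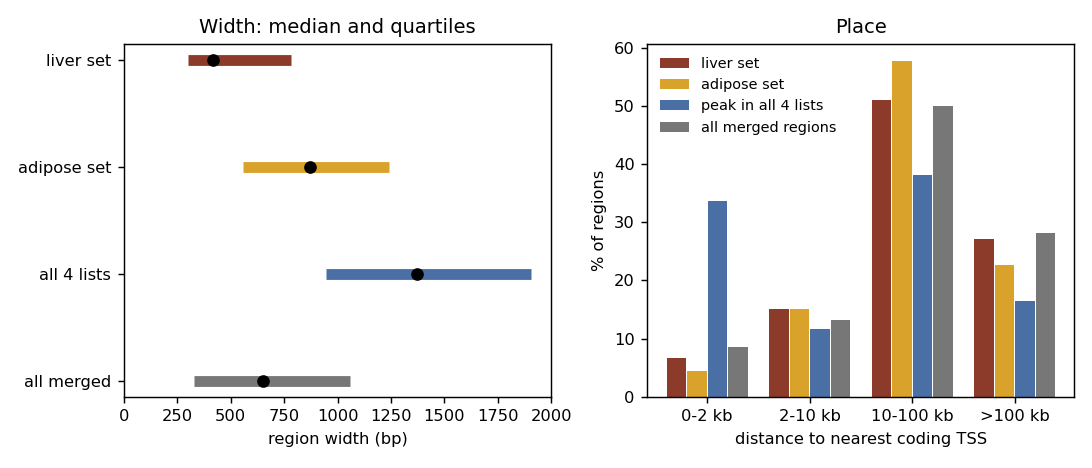
Left, region width in bp, as the median (dot) and the quartiles (bar) of the liver set, the adipose set, the regions with a peak in all 4 lists and all merged regions. Right, the percent of the same regions in 4 bins of distance to the nearest coding TSS, where the regions of all 4 lists stand out within 2 kb, with 33.7% of those on sequences that have a coding TSS.

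The comparison was repeated with the 113682 best peaks of each list by q-value, the number in the shortest list. The liver set then had 25663 regions, 10.8% of 236880 merged regions, and the adipose set 15536, or 6.56%. Median widths were 418 bp and 877 bp, and TSS proximal shares 6.98% and 4.24%, so that width and place moved little. In single animals, liver without adipose gave 61169 regions in P348 and 60676 in P350, and adipose without liver 61786 and 60610. Between animals, adipose peaks recurred less. Of the equal lists, 25663 regions were shared by the liver lists alone and 15536 by the adipose lists alone, while 35625 and 36893 regions were found in a single adipose list and 24561 and 20816 in a single liver list. A stricter q-value limit moved the adipose set far more than the liver set. At q under 0.01 the sets held 28445 and 5719 regions, and at q under 0.0001 they held 25966 and 645.

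Because the rule uses all 4 lists, the difference was also read in the animal left out. Of 50624 regions with a peak in the liver and not in the adipose tissue of P348, 56.2% had a peak in the liver of P350 and 12.8% in its adipose tissue, against 50.0% and 41.6% of all merged regions. Of 76721 such regions of P350, 48.9% had a peak in the liver of P348 and 31.1% in its adipose tissue, against 40.8% and 59.1% of all merged regions. Adipose regions recurred less. Of 53588 regions with a peak in the adipose tissue and not in the liver of P350, 45.01% had a peak in the adipose tissue of P348 and 11.2% in its liver. Of 100819 such regions of P348, which has the longest list, 31.6% had a peak in the adipose tissue of P350 and 21.8% in its liver. Both shares in adipose tissue were below those of all merged regions, 59.1% in P348 and 41.6% in P350. In all 4 readings the matching tissue of the other animal had the higher share.

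The sets were then read in the 6 other pig tissues, whose lists did not enter the rule. The average share of regions with a peak in both animals of a tissue was 22.9 ± 7.87% for the liver set and 21.9 ± 9.66% for the adipose set (SD, n = 6 tissues). The difference between the sets averaged -0.974 percentage points (adipose minus liver), was positive in 4 of 6 tissues and gave p = 0.812 in a two-sided sign-flip test (exact permutation), where 0.03125 is the smallest possible. The tissues read the same sets and are not independent. This result depended on the libraries. Without adipose P348 the difference was -17.6 and without adipose P350 -13.0, both with p = 0.03125 (exact permutation test), while it was 7.09 without liver P348 and 11.7 without liver P350.

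Spleen stood at the liver end. Of the liver set 27.4% had a peak in both spleen lists, and of the adipose set 8.30%, with 21.1% of all merged regions. In the spleen of P348 alone the shares were 37.2% and 17.5%, and in that of P350 32.4% and 21.3%. The difference stayed negative in all 14 settings run, from -29.8 to -4.77 percentage points. Cerebral cortex was on the same side, with 27.3% against 21.4% and 28.4% of all merged regions, but turned in 4 of 14 settings. In cerebellum the adipose set had the higher share, 28.2% against 16.96% of the liver set, and so in 12 of 14 settings. That share was still below the 29.7% of all merged regions. Lung had the highest shares, 33.4% and 35.7%, with 37.4% of all merged regions. Hypothalamus had the lowest in the liver set, 12.2% against 14.8%, with 20.8% of all merged regions. Skeletal muscle had 19.9% and 23.1%, with 23.3% of all merged regions. Cerebellum and lung have the longest lists, an overlap of 1 bp counted, and adipose set regions are wider. The part of list length and width was not tested. At the other extreme, 4177 liver set regions (17.5%) and 2009 adipose set regions (10.0%) had no peak in any of the 12 other libraries.

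**Figure D3:**
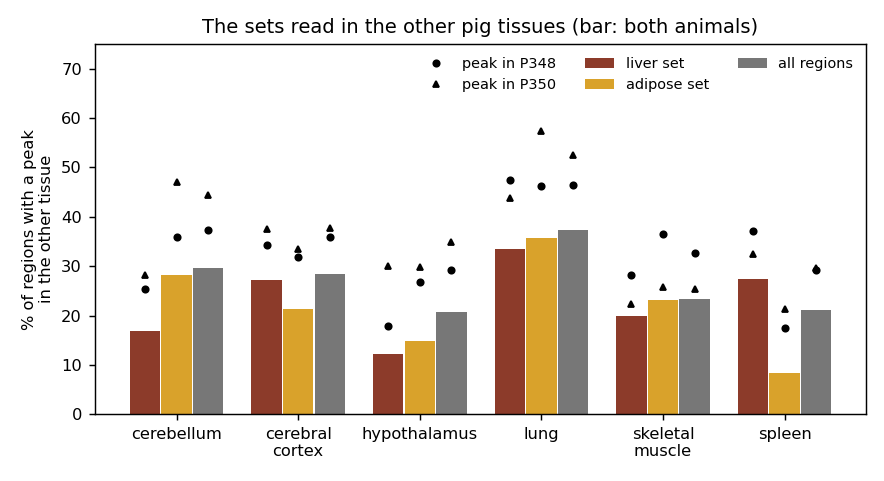
Percent of the liver set, the adipose set and all merged regions with a peak in each other pig tissue. Bars count regions with a peak in both animals and points those with a peak in P348 (circle) or P350 (triangle), and in spleen the liver set, at 27.4%, stands above the adipose set, at 8.30%.

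Transcription factor motifs were not part of the rule and had unequal shares in the sets. Windows of 300 bases at the middle of each region were searched on both strands for 16 short motifs, given here with their letters, N being any base. Such a window takes in less of an adipose set region (median 869 bp) than of a liver set region (416 bp). The part of this in the shares was not tested. The HNF1 motif (GTTAATNAT) was in 1.91% of liver set windows and 0.433% of adipose set windows, against 0.797% of all merged regions, a ratio of 4.41 between the sets. In single animals it was in 1.60% and 1.11% of regions open in liver alone and in 0.636% and 0.523% of those open in adipose alone. ONECUT (AATCAATA) was in 1.67% and 0.359%, a ratio of 4.65, HNF4A (CAAAGTCCA) in 1.23% and 0.344%, a ratio of 3.58, and FOXA (TGTTTAC) in 6.53% and 2.40%, a ratio of 2.72. The GATA motif was in 4.86% and 2.60%, PU.1 in 3.04% and 2.07%, and RUNX (TGTGGTTT) in 2.78% and 2.15%. The EBF motif (CCCNNGGGA) went the other way, with 5.83% of the liver set, 9.32% of the adipose set and 8.08% of all regions. Regions with a peak in all 4 lists had a higher EBF share than the adipose set, 10.8%. AP-1 was level at 10.2% and 10.01%. The other motifs searched were DR1 (GGNCAAAGG, shared with part of the HNF4A letters), C/EBP (TTGCGCAA), TEAD (CATTCCA), MEF2 (CTATTTATA), ETS (CCGGAAGT) and the KLF/SP and CTCF motifs, and their ratios between the sets ran from 0.968 for CTCF to 2.60 for C/EBP, which was in only 0.142% of liver set windows and had a ratio of 1.64 among windows of 45 to 55% GC.

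For each of HNF1, ONECUT, HNF4A, FOXA, GATA and EBF both animals went the same way and their values did not overlap. The same held for every other motif searched except AP-1, ETS and CTCF, so it does not single out the named motifs. A comparison of 2 against 2 cannot give a p below 0.333. Base composition moved with these shares. The median GC content of the windows was 47.3% in the liver set, 53.7% in the adipose set and 52.0% in all regions, and the HNF1, ONECUT and FOXA motifs are rich in A and T. Among windows of 45 to 55% GC, an alternative added after the data were seen, the ratio between the sets was 3.51 for HNF1, 3.74 for ONECUT, 3.54 for HNF4A, 2.49 for FOXA, 1.84 for GATA and 0.727 for EBF. A match is a run of letters and does not show that a factor was bound.

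Motifs also differed within the liver set. Among the 4177 regions with no peak in the other tissues, HNF1 was in 4.24%, ONECUT in 3.90%, HNF4A in 2.25% and FOXA in 9.70% of windows, and the median GC content was 44.3%. Among the 6549 regions with a peak in both spleen lists the shares were 0.794%, 0.733%, 0.504% and 4.72%. The PU.1 motif, of a factor of macrophages and B cells, was in 1.963% of the former and 5.66% of the latter, and RUNX (TGTGGTTT), of blood cell factors, in 2.56% and 4.09%. Adipose set regions with no peak elsewhere had an EBF motif in 6.97% of windows. That is below the 9.32% of the whole adipose set and the 8.08% of all regions. HNF1 was in 0.846% of those windows, against 0.433% and 0.797%.

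**Figure D4:**
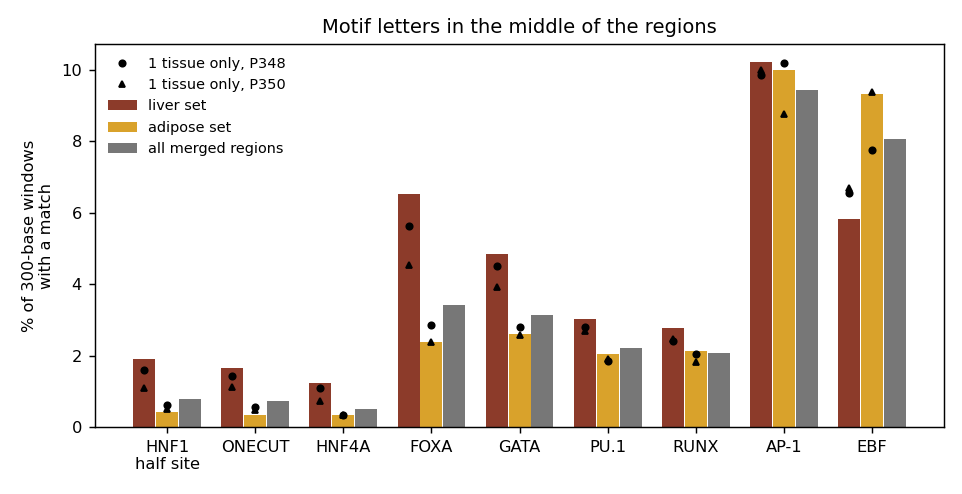
Percent of 300-base windows with at least 1 match to a motif in the liver set, the adipose set and all merged regions. Points are the regions with a peak in 1 tissue and not in the other in P348 (circle) or P350 (triangle). Among the 3 groups of bars the liver set stands highest for every motif drawn except EBF, with AP-1 nearly level, and the adipose set stands highest for EBF.

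Each region was assigned to the coding gene with the nearest TSS. A count of regions grows with the stretch of genome nearest to a gene, which was not adjusted for. The genes nearest to most liver set regions were MYC with 34, PDE4D with 28, DLG2 with 27, NOVA1 with 25, FAM135B with 24, KCTD3 and TBL1XR1 with 23 each, PPARGC1A and SORCS1 with 22 each, and FLRT2, GSE1 and ID2 with 21 each. PPARGC1A is the coactivator that drives gluconeogenesis and fat oxidation in fasting, and it had 8 adipose set regions. TBL1XR1, GSE1 and PDE4D had 2, 1 and 4. MYC also had 20 adipose set regions and stands in both leading groups. The adipose set was led by KLF6 with 26, QKI with 24, CD83, MYC, NAV3 and NRP1 with 20 each, FOXO1 and RASGEF1B with 19 each, PARD3, WWOX and ZNF438 with 18 each, and PDE10A with 17. FOXO1 is an insulin-regulated factor that acts in both liver and fat, and it had 5 liver set regions. KLF6 had 6, ZNF438 had 1 and NRP1, a receptor of vessels and nerves, had 7.

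A gene was said to lead to a tissue when its regions of that set outnumbered those of the other by 3 or more. Of 20674 coding genes, 1385 (6.70%) led to liver and 881 (4.26%) to adipose. The adipose count rested on the lists. At equal list length 1830 genes (8.85%) led to liver and 494 (2.39%) to adipose, at q under 0.01 the counts were 3023 and 38, and without adipose P350 they were 247 and 6390. A promoter count was kept beside the lead, with 1537 genes (7.43%) having a liver set region within 2 kb of a coding TSS and 896 (4.33%) an adipose set region. The gene lists were chosen for their known roles, and their counts are descriptions beside these shares of all genes.

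Of 20 transcription factors of the liver, 7 led to liver and 1 to adipose, 15 had more liver set than adipose set regions, and the median lead was 1, against 0 for all genes. ONECUT1 had 12 liver set regions and no adipose set region, and the bile acid receptor NR1H4 and the nuclear receptor NR5A2 had 9 and 12 against 1 and 4. Peak bases near ONECUT1 (chr1:118913400-118958140) were 130 and 67.6 per Mb in liver and 32.2 and 34.0 in adipose, without overlap. Such a separation toward liver was found at 19.0% of all coding genes. PROX1, needed for liver growth, had 15 and 8. FOXA2 had 1 liver set and 4 adipose set regions, and 1 and 2 at equal list length, but its peak bases per Mb were 56.2 and 49.9 in liver and 10.7 and 41.6 in adipose. At equal list length 10 of the 20 led to liver and none to adipose. The count moved with the adipose libraries. Without adipose P348, 4 led to liver and 3 to adipose (20% and 15%), against 6.37% and 14.0% of all coding genes. Without adipose P350 the counts were 3 and 6 (15% and 30%), against 1.19% and 30.9% of all coding genes.

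Genes of hepatocyte products showed the contrast at their promoters more than in their lead. Of 23 plasma protein genes, 3 led to liver, none led to adipose and 10 had a liver set region at a TSS, with 1 having an adipose set region there. ALB and GC, carriers of fatty acids and of vitamin D, had 4 and 5 liver set regions against 0 and 1. Of 28 coagulation and complement genes, 5 led to liver and 1 to adipose, and 12 had a liver set region at a TSS and 2 an adipose set region. The clotting factor F11 had 4 liver set regions and no other, complement C6 had 4 and none, and the fibrinogen chain FGG had 3 and none. F2, the gene of prothrombin, had none and 3. Of 18 apolipoprotein and lipoprotein genes, 1 led each way and 7 had a liver set region at a TSS. APOB, the protein of VLDL and LDL, had 6 liver set regions and 1 adipose set region, with 99.7 and 75.1 peak bases per Mb in liver and 39.3 and 43.1 in adipose.

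Peak bases per Mb were higher in both liver libraries than in both adipose libraries at 13 of the 23 plasma protein genes, 12 of the 18 apolipoprotein genes and 14 of the 28 coagulation and complement genes. The share of all coding genes was 19.0%, and 21.2% for the reverse. The reverse was found at 1, 0 and 1 of these genes. The leads turned without adipose P350, to 1 liver and 3 adipose for plasma proteins, 0 and 4 for apolipoproteins and 2 and 5 for coagulation and complement.

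Metabolic genes of the liver followed. Of 21 genes of the urea cycle, gluconeogenesis and amino acid breakdown, 4 led to liver, none led to adipose, 8 had a liver set region at a TSS and 3 an adipose set region, and 16 had more peak bases per Mb in both liver libraries, with 1 in the reverse. CPS1, the entry enzyme of the urea cycle (chr15:113210038-113339086), had 11 liver set regions, 94.1 and 40.6 peak bases per Mb in liver and no peak in either adipose list. FBP1, a gluconeogenic phosphatase, had 5 and none. PC, the pyruvate carboxylase of gluconeogenesis, had 1 and 3. Of 17 bile acid and xenobiotic genes, 2 led to liver, and SLCO1B3 had 4 liver set regions and no adipose set region. Of 17 genes of fatty acid oxidation and ketogenesis, 1 led to liver, PDK4, the kinase that spares glucose, with 4 and 1, a share close to that of all genes. No gene of either list led to adipose. Without adipose P350 the leads were 3 liver and 1 adipose for the urea cycle list (14.3% and 4.76%). They were 1 and 2 for bile acid genes (5.88% and 11.8%), and 0 and 4 for fatty acid oxidation (0% and 23.5%). Of all coding genes 1.19% led to liver and 30.9% to adipose in that setting.

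The adipocyte lists were less one-sided. Of 20 genes of lipid storage and lipolysis, 3 led to adipose and 2 to liver, and 9 had more peak bases per Mb in both adipose libraries, with 3 in the reverse. MGLL, the monoglyceride lipase, had 4 adipose set and no liver set regions, and LPL, the lipase that loads fat cells, had 3 and none. ABHD5, an activator of lipolysis, had 2 and 6. MGLL (chr13:72480395-72568964) had 111 and 181 peak bases per Mb in adipose and 82.1 and 89.6 in liver, and LPL (chr14:4104761-4134964) 22.4 and 45.04 against 18.9 and 18.9. Of 20 adipogenic transcription factors, 5 led to adipose and 2 to liver. CEBPD had 10 adipose set and 5 liver set regions, PPARG 4 and none, RXRG 6 and 2, and EBF1 10 and 7. RXRA, the partner of PPARG, had 2 and 7. PPARG (chr13:68301566-68433951) had 98.5 and 83.1 peak bases per Mb in adipose and 56.8 and 34.4 in liver, without overlap. Of all coding genes, 21.2% were higher in both adipose libraries and 19.0% in both liver libraries.

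Of 17 adipokine and insulin response genes, 2 led to adipose and 1 to liver. IRS2 had 12 adipose set and 8 liver set regions, while IRS1, the other main insulin receptor substrate, had none and 8. Of 20 genes of fatty acid and triglyceride synthesis, 1 led to adipose and 3 to liver. LPIN1, the phosphatidate phosphatase, had 14 adipose set and 5 liver set regions, and SREBF1, the factor of lipid synthesis, had none and 4. At equal list length these counts were 1 to adipose and 3 to liver for storage and lipolysis, and 4 and 6 for adipogenic factors. They were none and 2 for adipokines and 1 and 4 for synthesis. Adipose leads thus no longer outnumbered liver leads in storage, adipogenic and adipokine genes. Of all coding genes 2.39% led to adipose and 8.85% to liver there. The list shares were 20% and 30% for adipogenic factors, 5% and 15% for storage, and 0% and 11.8% for adipokines. Without liver P348 the counts were 1 adipose and 2 liver for storage and lipolysis, and 2 and 11 for adipogenic factors. For adipokines they were 1 and 4, and of all coding genes 2.21% led to adipose and 17.7% to liver.

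Other cell types moved with the sets as well. Of 15 macrophage genes, 3 led to liver and none to adipose, and they had 26 liver set and 5 adipose set regions. TIMD4, a receptor of resident macrophages, had 12 and 1, MARCO, a scavenger receptor, 6 and 1, and VSIG4, the complement receptor of Kupffer cells, 4 and none. Peak bases per Mb at TIMD4 were 54.4 and 30.03 in liver and 13.5 and 11.6 in adipose, while CD68 and SPI1, macrophage genes as well, were nearest to no region of either set. Peak bases per Mb were higher in both liver libraries at 6 of the 15 genes and in both adipose libraries at 4, which were C1QA, C1QB, C1QC and MS4A7. These are 40.0% and 26.7% of the list, against 19.0% and 21.2% of all coding genes. Of the 26 regions, 34.6% had a peak in both spleen lists, close to the 27.4% of all liver set regions, and plasma protein genes had none of 31 there. Of 12 T and NK cell genes 1 led to liver, and 5 had a liver set region at a TSS. Of 7 B cell genes none led either way, and 3 had a liver set region at a TSS. Their part in the share of spleen was not tested.

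On the adipose side, 3 of 16 endothelial genes led to adipose and 1 to liver, with FLT1, a VEGF receptor, at 11 adipose set and 2 liver set regions, ERG at 7 and 3 and EMCN at 2 and 7. FLT1 had 169 and 239 peak bases per Mb in adipose and 128 and 123 in liver. By that measure 4 endothelial genes were higher in both adipose libraries (FLT1, ERG, PECAM1 and STAB1) and 4 in both liver libraries (TEK, KDR, SOX17 and SOX18). Each is 25.0% of the list, near the 21.2% and 19.0% of all coding genes. At equal list length 4 endothelial genes led to adipose and 1 to liver (25% and 6.25%). Of all coding genes 2.39% and 8.85% did so there. Without liver P348 the endothelial leads turned to 1 adipose and 5 liver (6.25% and 31.25%), against 2.21% and 17.7% of all coding genes. Of 24 fibroblast, progenitor and matrix genes, 4 led to adipose and 2 to liver. They included the matrix gene COL6A3 with 7 and none, and the factors OSR1 with 10 and 3 and TWIST2 with 8 and 1, while POSTN had none and 4. At equal list length the counts were 3 each way, 12.5% of the list. Of all coding genes 2.39% led to adipose and 8.85% to liver there. Without liver P348 the counts were none and 11 (0% and 45.8%), against 2.21% and 17.7% of all coding genes. Of 23 positional homeobox genes 2 led to adipose, IRX5 with 5 and 1 and EN1 with 4 and 1, and 1 led to liver, MEIS1 with 6 and 12. Without liver P348 these counts were 0 and 5 (0% and 21.7%), against 2.21% and 17.7% of all coding genes. None of 12 muscle genes led either way, of 11 bile duct and stellate cell genes 1 led each way, and of 7 Schwann cell and nerve genes 2 led to liver. The part of these cell types in either set was not tested.

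**Figure D5:**
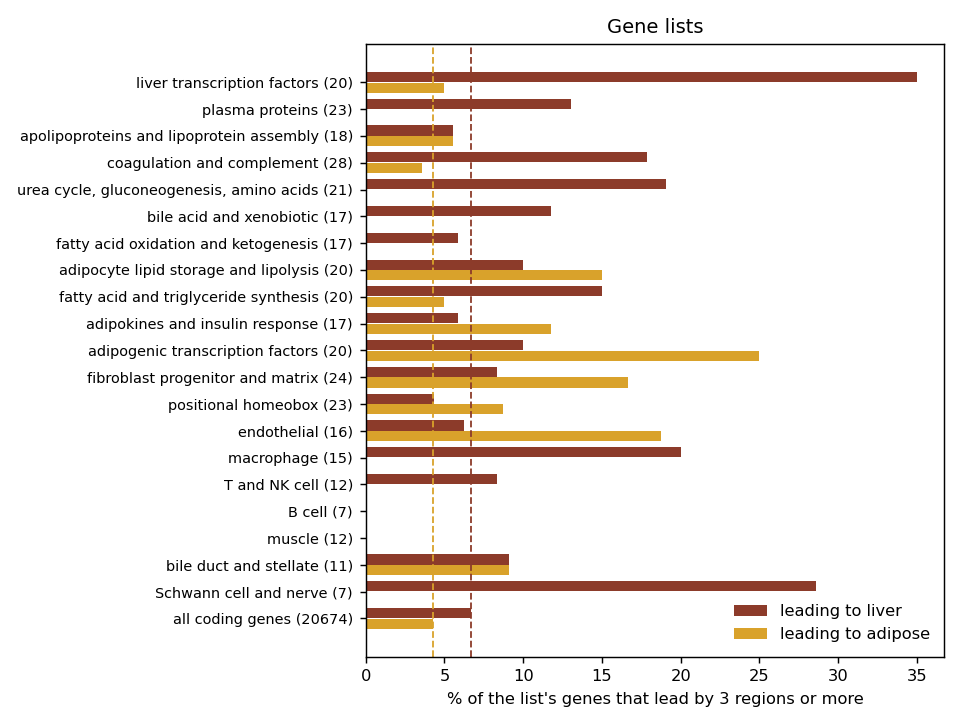
Percent of each gene list that led to liver or to adipose by 3 regions or more, with the number of genes in parentheses and dashed lines at the shares of all coding genes, 6.70% for liver and 4.26% for adipose. Liver transcription factors reach 35.0% for liver and adipogenic transcription factors 25.0% for adipose.

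The regions with the highest fold in the weaker library were not those of the classical marker genes. In the liver set they lay nearest to PROKR2 (folds of 16.6 in P348 and 15.2 in P350), PIGK (16.4 and 14.6), CITED2 (14.6 and 14.4) and LOC102159784 (17.7 and 14.4). These 4 were intergenic and 24821 to 549138 bp from a coding TSS. They had peaks in 12, 6, 10 and 9 of the 12 libraries of other tissues, so none of these 4 was open in liver alone. In the adipose set the top regions lay nearest to MEOX2 (7.31 and 6.77), MDFIC (7.63 and 6.57), TMEM257 (5.996 and 6.50), LOC110259533 (6.32 and 5.93) and JAG1 (6.46 and 5.90). MEOX2 is a mesodermal homeobox gene and JAG1 a Notch ligand. The JAG1 region, 9566 bp from the TSS, had a peak in 1 of the 12 other libraries, and the other 4 in 6 to 10. The folds of the adipose regions were lower than those of the liver regions in both animals, as were the medians over the sets, 2.68 and 2.91 in the adipose set against 4.33 and 3.604 in the liver set.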

How the data were processed

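ATAC-seq peak lists of pig liver and adipose tissue were analysed, 1 list for each of 4 libraries, with 12 lists of 6 other pig tissues read at the regions found. Cattle lists were not used here. Per the study's methods, nuclei were cryopreserved from fresh tissue, libraries were size-selected for short fragments, adapters were trimmed (Trim Galore 0.4.5), and reads were aligned with BWA 0.7.17 to Sscrofa11.1 and filtered with SAMtools 1.10 and Picard 2.18.17 (versions from the submitters' processing notes), and broad peaks were called per library with MACS2 at a q-value limit of 0.05. The deposited fold enrichment is a ratio of signal to local background, and the deposited −log10 q-value ranked and filtered peaks, both as averages over a peak. In the 4 lists 5.46% to 11.9% of peaks had a q-value above 0.05. Whether read ends were shifted for the transposase is not given in the sources used here. Depth was not used here, so no value was adjusted for it, and Wilson intervals cover counting error only.

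Groups and animals were taken from the labels. The animal names pair the libraries, since each animal gave both tissues, and the deviations of the 2 tissues from their means over genes correlated at 0.0194. Genes came from NCBI annotation release 106 of Sscrofa11.1, with 20674 coding genes, and all 193 sequence names matched. A region was TSS proximal within 2 kb of a coding TSS. Library values were compared by exact two-sided permutation tests over 4 libraries and tissue shares by the sign-flip test, at a threshold of 0.05. The members and gene lists were chosen with earlier results of these data known. Genes were named as the 4 markers, the 12 genes with a symbol nearest to most regions of a set, up to 4 genes of a list with the largest leads, and the nearest genes of the 5 regions of a set with the highest weaker fold. Some genes that this rule names are not reported here. FABP4, CD68, SPI1, the macrophage and endothelial genes named by peak bases alone, and 5 of the sequences were chosen after their values were seen. Alternatives were lists of equal length, q-value limits of 0.01 and 0.0001, autosomes, merging within 500 bp, a cover of 50%, 1 library a tissue, leaving out each library, other TSS distances, leads and gene assignments. Python 3.11.15 with numpy 2.4.6, pandas 2.3.3, scipy 1.17.1 and matplotlib 3.10.9 was used, and the scripts were tested on simulated lists.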

Additional observations from a re-analysis of the deposited data

How the results depend on the processing

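Liver peaks were narrower under every alternative run. With equal lists, the adipose set had a median width of 877 bp, the overlap with other tissues was 1.34 percentage points (adipose minus liver set) and 494 genes led to adipose. At q under 0.01 the adipose set had 5719 regions of 793 bp, the liver set was TSS proximal in 9.20%, the overlap was 6.22, 3023 genes led to liver and 38 to adipose, and the liver minus adipose differences were 0.54 (log2) in peak number, 0.17 in covered bases and -2.93 points in TSS share. At q under 0.0001 these were 645 regions of 766 bp, 16.1% and, for the adipose set, 8.06%, 8.73, 3298 genes and 0, 1.67, 1.09 and -23.2. Merging within 500 bp gave an adipose width of 884 bp. With 50% cover the TSS shares were 7.98% and 10.3%, the adipose width 969 bp and the overlap 11.6. With a peak in at least 1 library, the sets had 73106 and 106364 regions, TSS shares of 4.46% and 3.77%, an adipose width of 539 bp and 5812 genes leading to adipose. A TSS distance of 500 bp gave 3.92% and 2.11%, a peak in either animal of the other tissue an overlap of 5.09, and a lead of 5 regions 543 and 228 genes. Among windows of 45 to 55% GC the MEF2 ratio was 0.638.

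Leaving out 1 library gave 28874 to 53833 regions in the liver set and 24241 to 80516 in the adipose set, TSS shares of 4.67% to 7.65% and 3.78% to 4.74%, widths of 306 to 461 bp and 480 to 914 bp, an overlap of -17.6 to 11.7, and 247 to 3662 genes leading to liver and 457 to 6390 to adipose. The cause of these changes was not tested. With the animal as a replicate block, the paired differences were -0.13 in peak number, -0.44 in covered bases, -0.48 in width and 1.47 points in TSS share. The exact p of the sign-flip test was no lower than 0.5, the smallest that 2 animals can give, so this test could not change a call. Depth was not used here, and 2 libraries a tissue limit every comparison.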
